A study of Mus musculus with 2 samples.

Results

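The genes described here are those of the tripartite motif (TRIM) family, taken as every non-control probe of the array whose gene name is Trim followed by a number and at most 1 letter. The rule found 99 probes of 51 genes among 41171 probes of 28781 genes, and used names alone, no measured value. Of the 51 genes, 40 were well above background on both arrays, 1 (Trim52) on the control array only and 10 on neither, so every count of measured members below has 40 as its total. RNA came from RAW 264.7, an established mouse macrophage-like tumour line that can become osteoclast-like under the cytokine RANKL, and it was hybridised to 1-colour Agilent whole mouse genome arrays. The 1 control array holds RNA of cells kept at ground level, and the 1 RCCS array holds RNA of cells loaded for 24 h in a rotary cell culture system, which models microgravity. The labels describe RANKL at 80 ng/ml over 24 h in wording shared by the samples, which does not settle whether the control cells received it, so all differences are given as RCCS against control. Each group is 1 array of the same line, so nothing below was checked against replicates or tested.

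Most TRIM proteins join a RING domain, through which they can act as ubiquitin ligases, to B-box and coiled-coil segments. TRIM proteins differ in the C-terminal domain that picks their targets. Several are made in larger amounts when interferon acts on a macrophage, and these restrict viruses or tune the signals of RNA, DNA and Toll-like receptor sensing. The promoters of such genes often carry a short sequence called the interferon-stimulated response element. Other members act in chromatin, at the centrosome, in muscle or in neurons. The comparison asks how these members stood in modelled microgravity, with 8 genes listed as interferon-induced (Trim12, Trim14, Trim21, Trim25, Trim26, Trim30, Trim34 and Trim56) set against the other 43.

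Signals are given scaled, with the 75th percentile of each array set to 1000; a signal could then be called well above background from 28.5 in the control and from 22.0 in RCCS. The log2 ratio is RCCS minus control, and a gene takes the mean of its measured probes. Its error is the spot error that the scanner software assigns, with a median 95% half-width of 0.40 over the 40 measured members, from 0.21 to 0.70; it covers neither cultures nor RNA preparation. The measured probes of 1 gene give another view of the precision: over 22 members with more than 1, the SD between probes was 0.25 at the median and 0.63 at most, in log2 units. No member spot was saturated or called an outlier.

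The labelled cell type was checked first. All 10 macrophage genes looked at (among them Csf1r, Cd68 and Lyz2) were well above background on both arrays, with summed signals of 1199710 and 1240710, most of it from a few bright genes such as Lyz2. Their log2 ratios had a median of 0.06, with the transcription factor gene Spi1 lowest, at -0.72. The integrin gene Itgam was highest; the higher signal of its 2 probes was 1518 in the control and 5971 in RCCS. Of 10 osteoclast genes, 9 were so in the control and all 10 in RCCS (sums 20208 and 19322). The near-equal sums cover differences in both directions. Of the 9 measured osteoclast genes, 7 had a log2 ratio below 0 (77.8%), as had 61.8% of all measured genes. Their median was -0.57. The lowest were Dcstamp (-1.62), Atp6v0d2 (-0.96), Ocstamp (-0.95) and Mmp9 (-0.66), while Ctsk was at 1.22. The value of Mmp9 is a mean of 2 probes, whose highest signal was 1685 in the control and 1590 in RCCS. The lists for T cells, B cells, fibroblasts and epithelium had 1 to 3 members of 4 or 5 above background on each array, with sums of 189 to 1054 in the control and 106 to 772 in RCCS. This count leaves out the fibroblast gene Col3a1, which was above background on each array but by different probes (highest signals 51.3 in the control and 29.9 in RCCS). Cd3d, Cd2, Ms4a1, Pdgfra and Cdh1 were above background on neither. The fibroblast list went from 216 to 650 in sum, mostly through Dcn, from 17.9 (not above background) to 478; the part of these markers, osteoclast genes included, in the results was not tested. Over all 16022 measured genes the median log2 ratio was -0.13. At the 2-fold threshold 50.8% of calls were higher on the RCCS array, against 82.0% when scaled on spike-in probes, 66.7% at the 75th percentile of measured probes and 62.7% after normexp and quantile normalization.

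Promoter sequence was looked at first because a known control element is found in many interferon-induced genes. RefSeq promoter windows (GRCm38.p6, 250 bases before to 50 after a start) were matched by symbol for 38 of the 51 genes, with Trim12, Trim30 and Trim34 carried under their current symbols Trim12a, Trim30a and Trim34a. The core of the response element was searched on both strands as GAAA, any 2 bases and GAAA. It was found for 5 of the 7 interferon-induced members with a window (71.4%) and for 1 of the 31 other members with one (Trim2, in 1 of its 5 windows; 3.23%), where 3.99% of 27025 genes with a window held it. The 5 were Trim12, Trim21, Trim26, Trim30 and Trim34; no window of Trim25 or Trim56 held these letters and Trim14 had none to search. A second motif, TTCNNNGAA, the core of the gamma-activated site, was found for 0 of the 7 and 4 of the 31, against 9.55% of all genes. A match is a string of letters and was not shown to be bound here.

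The stretches that hold the match in the interferon-induced members and their neighbours are printed 5′ to 3′ on the gene's own strand, with the matched letters in capitals. Read on the other strand, the same element is TTTC, any 2 bases and TTTC. Positions are counted from the start site, minus before it. Trim30a has a match at each of 2 start sites, and the match of Trim2 is not shown. Where the match lies after the start site, only the 30 bases around it are given.
Trim30a (chr7:104465194-104465293, - strand, match at -36 to -27): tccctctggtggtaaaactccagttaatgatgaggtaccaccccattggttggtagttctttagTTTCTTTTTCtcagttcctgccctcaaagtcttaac
Trim30a, second start (chr7:104446104-104446133, - strand, match at 3 to 12): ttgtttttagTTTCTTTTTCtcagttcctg
Trim30d (chr7:104507850-104507949, - strand, match at -41 to -32): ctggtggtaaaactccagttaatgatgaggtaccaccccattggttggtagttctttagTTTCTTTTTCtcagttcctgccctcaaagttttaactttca
Trim34a (chr7:104244457-104244486, + strand, match at 11 to 20): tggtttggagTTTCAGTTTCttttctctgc
Trim12a (chr7:104315466-104315495, - strand, match at 11 to 20): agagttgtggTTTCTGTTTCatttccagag
Trim12c (chr7:104353350-104353449, - strand, match at -29 to -20): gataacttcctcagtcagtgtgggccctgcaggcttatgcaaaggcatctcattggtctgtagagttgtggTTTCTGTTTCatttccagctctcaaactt
Trim5 (chr7:104288107-104288206, - strand, match at -49 to -40): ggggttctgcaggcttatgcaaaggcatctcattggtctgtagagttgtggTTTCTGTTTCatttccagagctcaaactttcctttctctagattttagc
Trim21 (chr7:102565447-102565476, - strand, match at 14 to 29): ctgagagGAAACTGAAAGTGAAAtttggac
Trim26 (chr17:36836944-36837043, + strand, match at -160 to -145): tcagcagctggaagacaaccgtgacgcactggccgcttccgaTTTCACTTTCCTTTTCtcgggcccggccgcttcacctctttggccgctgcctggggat
Trim12c, Trim30d and Trim5 are family members that the naming rule missed, shown because they hold a match and neighbour the measured genes. They were the 3 with a match among 10 such genes with a window. Those without one include Trim30b, which lies in the same cluster, and Pml, an interferon-induced member. In Trim21 and Trim26 the element repeats, with 2 overlapping matches each. The windows of Trim30a and Trim30d share a run of 118 identical bases, those of Trim12a and Trim5 one of 241 and those of Trim12a and Trim12c one of 71, so these matches are not independent of each other. By RefSeq gene order these genes lie next to each other on chromosome 7, with 1 other gene between Trim12c and Trim30b, in the order Trim6, Trim34a, Trim5, Trim12a, Trim34b, Trim12c, Trim30b, Trim30c, Trim30a and Trim30d. Trim21 and Trim68 lie apart from them on the same chromosome, and Trim26 lies on chromosome 17 near Trim15, Trim10 and Trim31.

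All 8 interferon-induced members were measured, and their median log2 ratio was -0.84, a 1.79-fold lower signal on the RCCS array. The median of the 32 other measured members was -0.08, close to the -0.13 of all genes, and the difference of the medians was -0.76. Each of the 8 had a log2 ratio below 0, as had 19 of the 32 others and 61.8% of all measured genes; scaled on spike-in probes 7 of the 8 were below 0, with Trim26 at 0.11. At least 1.5-fold lower were 5 of the 8 (62.5%) and 2 of the 32 others (6.25%), where the background was 14.8%. At least 2-fold lower were 2 of the 8 and 0 of the 32, together 5.0% of measured members against a background of 3.76%, so at that threshold the family as a whole stood near the background. At least 3-fold lower was 1 member, Trim30 (background 0.955%), and 0 were 3-fold higher (background 1.28%). Osteoclast genes also had a median below that of all genes (-0.57), and their part in this difference was not tested. As this is bulk RNA, fewer cells making a transcript and less of it per cell cannot be told apart.

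**Figure D1:**
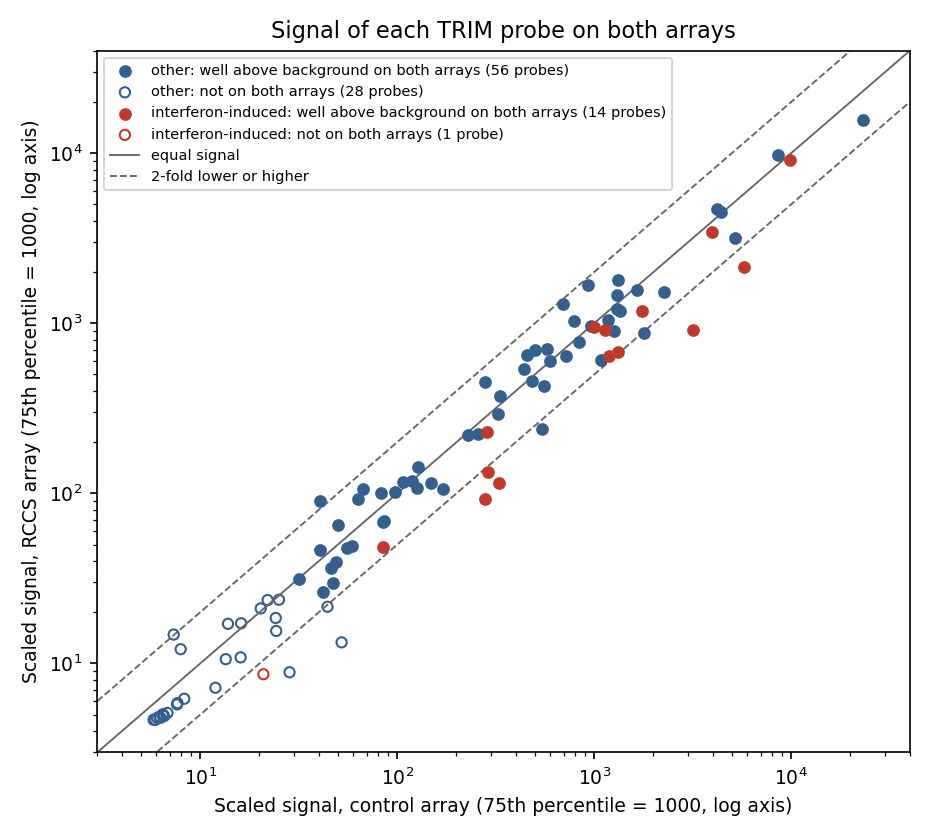
Scaled signal of each of the 99 TRIM probes on the control array (x axis) and the RCCS array (y axis), both on log axes with the 75th percentile at 1000; red points are probes of the interferon-induced list, blue points the other members, and open points were not well above background on both arrays. The 14 filled red points lie below the line of equal signal, and the probes of Trim30 and Trim34 lie below the lower 2-fold line.

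Trim30, which restrains Toll-like receptor signalling by promoting loss of the adaptor Tab2, had the lowest value of the family. Its 2 probes read 5785 and 3186 in the control and 2128 and 908 in RCCS. That is a log2 ratio of -1.63 ± 0.28 (95% spot error), a 3.09-fold lower signal, with probes at -1.44 and -1.81, and 0.855% of measured genes lay lower. Trim34, a relative of the retroviral restriction factor Trim5, had 3 probes, which read 278 to 328 in the control and 92.7 to 133 in RCCS. Its log2 ratio was -1.41 ± 0.24, 2.65-fold lower, with its probes between -1.59 and -1.11. In both genes every probe was lower on the RCCS array, and both stayed at least 2-fold lower under each of the 10 other ways of processing that were run. Trim12, another relative of Trim5, was measured by 1 dim probe, at 84.3 in the control and 48.1 in RCCS, a log2 ratio of -0.81 ± 0.52. Its second probe was above background on neither (20.9 and 8.65), and after normexp and quantile normalization the value came to -0.42. Since the genes of this cluster are close in sequence, their probes may also have bound relatives.

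Trim14 and Trim21 stood next, each measured by 1 probe. Trim14, which works at mitochondria as a partner of the RNA-sensing adaptor Mavs, went from 1316 on the control array to 678 on the RCCS array, a log2 ratio of -0.96 ± 0.40 (1.94-fold lower). Trim21, the cytosolic antibody receptor also known as the autoantigen Ro52, went from 1183 to 646, a log2 ratio of -0.87 ± 0.40 (1.83-fold lower). Their intervals overlap each other and that of Trim12, so the order among these 3 is not settled by the spot error. They ranged from -0.96 to -0.65 (Trim14) and from -0.88 to -0.57 (Trim21) over the 10 alternatives.

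The other 3 members of the list lay within 1.5-fold. Trim25, the ligase that activates the RNA sensor RIG-I, had probes at 9851 and 1753 in the control and at 9078 and 1176 in RCCS, for a log2 ratio of -0.35 ± 0.28; its probes differed, at -0.12 and -0.58. Trim56, a ligase linked to sensing of cytosolic DNA, went from 1138 to 907, at -0.33 ± 0.40. Trim26, a ligase for Irf3, had 3 probes, from 285 to 228, from 3965 to 3446 and from 1000 to 949, and was at -0.20 ± 0.23. The intervals of Trim56 and Trim26 include 0, and 32.6% and 43.8% of all measured genes lay lower than they did. That of Trim25 does not, but 30.9% of measured genes lay lower than Trim25, and scaled on spike-in probes it was at -0.04. The list was thus not uniform: Trim26 (-0.20) and Trim30 (-1.63) both hold the searched element. Without Trim12, Trim30 and Trim34, the members of the chromosome 7 cluster, the median of the list was -0.35, the difference of the medians was -0.26, and 0 members were at least 2-fold lower.

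**Figure D2:**
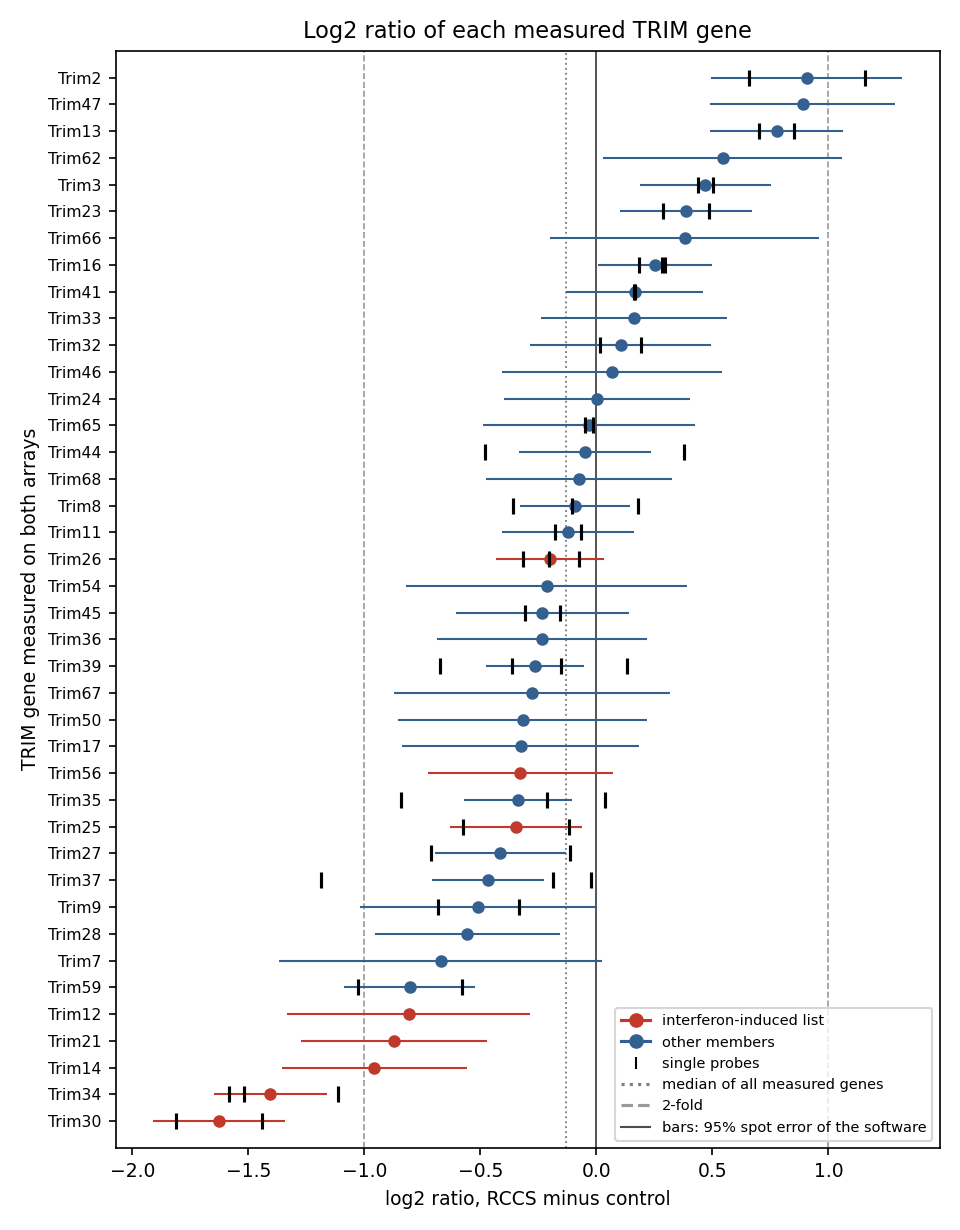
Log2 ratio, RCCS minus control, of the 40 measured TRIM genes in order (points; red for the interferon-induced list, blue for the others), with 95% spot error as bars and single probes as black ticks where a gene has more than 1. The 5 lowest genes, from Trim30 at -1.63 to Trim12 at -0.81, are red, and Trim2 at 0.91 is the highest; dashed lines mark 2-fold and the dotted line the median of all genes at -0.13.

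Family members that the naming rule missed were read from the same arrays. Pml, an interferon-induced member that builds nuclear bodies, had probes at 4602 and 1270 in the control and 1884 and 521 in RCCS, a log2 ratio of -1.29. It was not on the list of interferon-induced members used here, and was counted with the other members where genes under other names were added. Trim30d had 2 probes that disagreed, 1 from 2468 to 703 (-1.81) and 1 from 87.4 to 65.9 (-0.41), and Trim12c went from 324 to 213 (-0.61). Mid1, a microtubule-bound ligase, was at -0.92, Mefv, which encodes the inflammasome protein pyrin, at -0.25 and Mid2 at 0.19. Trim5, Trim30b and Trim80 were above background on neither array, and Trim69 only on the RCCS array, at 26.2. In all, 4 of the 6 measured genes of this kind were at least 1.5-fold lower (66.7%; background 14.8%).

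Partners of the interferon-induced members were read alongside. Stat2 (-1.29) and Irf9 (-0.97), transcription factors of the interferon response, were both lower on the RCCS array. Of 12 genes of innate sensing and its adaptors, 4 were at least 1.5-fold lower (33.3%; background 14.8%) and 0 higher (background 9.74%), with a median of -0.18. Those 4 were Irf7 (-3.12), Ddx58, which encodes RIG-I, the target of Trim25 (-2.76), Ifih1, which encodes the RNA sensor MDA5 (-1.65), and the kinase gene Ikbke (-0.67). Tab2, Mavs and Irf3, partners of Trim30, Trim14 and Trim26, lay at -0.28, -0.14 and -0.23.

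The 32 other measured members spread to both sides, from -0.81 to 0.91, with 13 above 0. Of all 40 measured members, 16 changed sign in at least 1 alternative, the one farthest from 0 being Trim62, so a side of 0 alone says little for members near it. None was 2-fold higher, where 3.88% of all genes were; 3 were at least 1.5-fold higher (9.38%; background 9.74%). Those 3 were Trim2, Trim47 and Trim13, and the 2 at least 1.5-fold lower were Trim59 and Trim7. Scaled on spike-in probes Trim2, Trim47 and Trim13 passed 2-fold, as did 1190 of all 16022 measured genes. These 3 of 40 members thus stood near the share of all genes under that scaling.

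By C-terminal domain, the classes with the NHL repeat and the PHD-bromo pair had the higher medians. The NHL class, whose repeats form a propeller that binds RNA or protein, had its 3 measured members above 0, with a median of 0.47. Trim2, a neuronal ligase of neurofilament, was dim, with 2 measured probes at 40.5 and 66.9 in the control and 90.3 and 105 in RCCS. Its log2 ratio was 0.91 ± 0.41, but 0.37 with normexp and 75th percentile scaling. Trim3 had probes at 457 and 1319 that went to 649 and 1785, at 0.47 ± 0.28, and Trim32, a ligase known from muscular dystrophy, was at 0.10 ± 0.39. These 3 were also above 0 in all alternatives except Trim32 with normexp and 75th percentile scaling, at -0.04.

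The PHD-bromo class holds the chromatin regulators, with a median of 0.08 over its 4 measured members. Trim28, the corepressor that silences repeats through zinc finger proteins, was measured by 1 probe. It went from 23065 on the control array to 15684 on the RCCS array, at -0.56 ± 0.40. Over the 10 alternatives it ranged from -0.58 to -0.25, and with quantile normalization it was at -0.28. Trim33, a regulator of Smad4, was at 0.16 ± 0.40 and Trim24, a nuclear receptor cofactor, at 0.00 ± 0.40. Trim66, at 0.38 ± 0.58, was dim, rested on 1 of its 3 probes and was at -0.13 without a filter on dim probes. Trim28 thus stood lower than the other 3 members of its class, but its interval overlapped those of Trim24, Trim33 and Trim66. Among its partners, the methyltransferase gene Setdb1 was at -0.13 and the heterochromatin protein genes Cbx1, Cbx3 and Cbx5 at -0.64, -0.39 and -0.57. Of 7 chromatin partners 2 were at least 1.5-fold lower, Cbx1 and Trp53 (-0.64), which is 28.6% against a background of 14.8%, and 0 were higher (background 9.74%).

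Both members anchored in a membrane were among the larger differences, in opposite directions. Trim13, an endoplasmic reticulum ligase, had probes at 935 and 278 that went to 1689 and 451, at 0.78 ± 0.29. Trim59 had probes at 2274 and 1796 that went to 1521 and 880, at -0.81 ± 0.28. The probes of each gene stood on 1 side of 0, and so did each gene in all 10 alternatives.

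Outside the interferon list, the 13 measured members with a PRY-SPRY domain, the class to which most of that list belongs, had a median of -0.12. Of these, Trim47 was the highest, from 698 to 1292 by 1 probe, at 0.89 ± 0.40. Trim62 was at 0.54 on 1 dim probe, while its other probe was above background on the control array only (44.3 and 21.6), and without a filter on dim probes it came to -0.25. Trim16, which acts on damaged membranes in autophagy, had 3 probes between 0.18 and 0.30. Trim27 had probes at -0.71 and -0.11, Trim35 at -0.84, -0.21 and 0.04, and Trim39 had 4 between -0.67 and 0.13. Trim7 was dim, from 47.4 to 29.8, at -0.67 ± 0.70. Trim41 (0.16), Trim65 (-0.03), Trim68 (-0.08), Trim11 (-0.12), Trim50 (-0.32) and Trim17 (-0.33) lay within their spot error of 0.

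**Figure D3:**
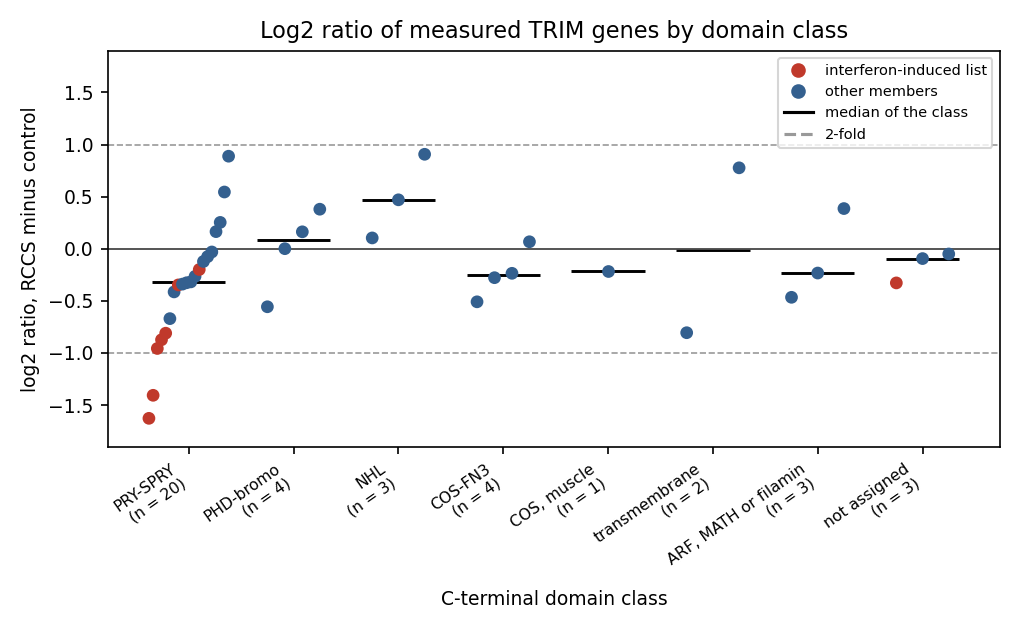
Log2 ratio, RCCS minus control, of the 40 measured TRIM genes by C-terminal domain class (points; red for the interferon-induced list, blue for the others), with the class median as a black bar. Red points hold the low end of the PRY-SPRY class (median -0.32, n = 20), and the NHL class (median 0.47, n = 3) lies above 0; classes of 1 to 4 genes are shown for their values only.

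Members with other C-terminal parts, or with none listed, differed in how well their probes matched. Trim37, a centrosome regulator, had probes at 119, 545 and 1352 that went to 117, 240 and 1187, so that 1 probe was at -1.19 and the others at -0.02 and -0.19. It was the only measured member with probes more than 1 apart (1 of 22 with several probes, 4.55%, where 7.31% of all genes with several probes were), and its mean of -0.47 rests on that probe. Trim44 had probes at -0.48 and 0.38. Trim23, which carries an ARF-type GTPase domain, was at 0.39 ± 0.28, and Trim45 at -0.23 ± 0.37. Trim8, a regulator of cytokine signalling, had 3 probes between -0.36 and 0.18. Of the members tied to microtubules, Trim9 (-0.51), Trim67 (-0.28), Trim36 (-0.24) and Trim46 (0.07) had low signals, from 26.3 to 126.

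Of the 3 muscle members Trim54, Trim55 and Trim63, the last known from muscle wasting, Trim54 alone was above background, at 55.7 and 48.0 (-0.22 ± 0.60). The others above background on neither array were Trim6, Trim10, Trim15, Trim29, Trim31, Trim42, Trim60 and Trim61. Trim6 neighbours Trim34a in the chromosome 7 cluster, and none of its 5 probes was above background. Trim52 was above background on the control array only, at 52.2 against 13.3 on the RCCS array, which gives at least 2.38-fold lower against the lowest signal called well above background there. That bound carries no error and rests on 1 dim probe, whose log2 ratio had a 95% spot error of 1.27. The second probe of Trim52 was above background on neither array (7.67 and 5.85).

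**Figure D4:**
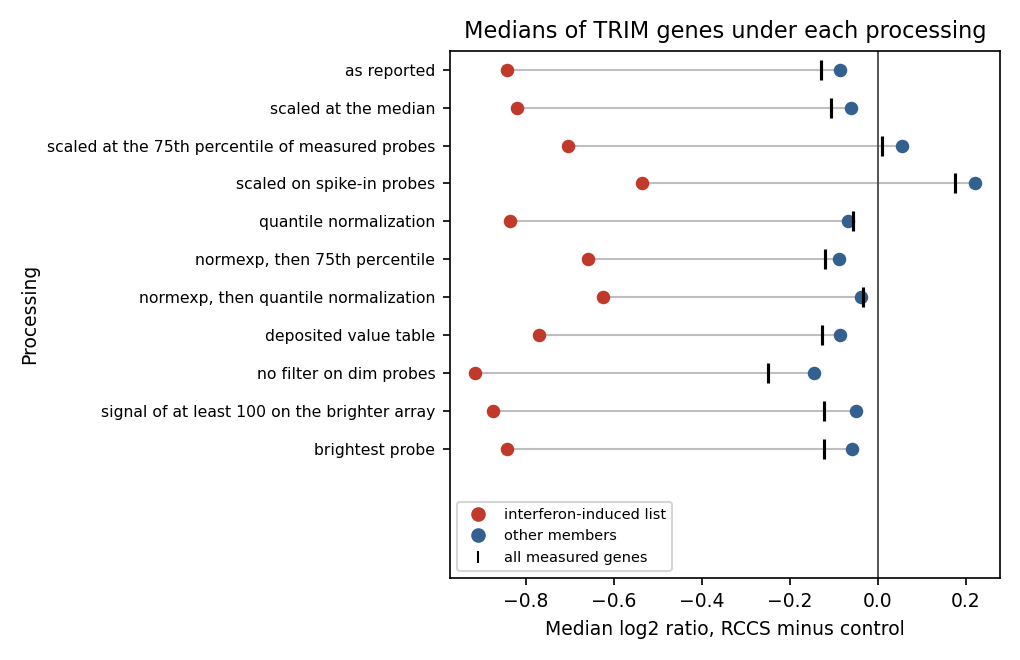
Median log2 ratio, RCCS minus control, of the measured interferon-induced members (red), the other members (blue) and all genes (black ticks) under the processing reported and 10 alternatives. The red points run from -0.91 to -0.54 and lie left of the blue points in each row, while the blue points follow the median of all genes and pass 0 under 2 scalings. In rows where only the factor that scales a whole array was changed, red and blue points shift together, so their distance could not change.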

How the data were processed

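RNA of 1 control and 1 RCCS sample was measured on 1 array each. Per the file headers, Agilent Feature Extraction 9.5.3.1 (also named in the submitters' processing notes) made the deposited spot intensities from 1-colour scans, with background and surface trend subtracted and no scaling between arrays; both arrays lay on the same slide. Scaling was to each array's 75th percentile (849 and 966) over non-control probes, after spots called outliers on either array were left out. A probe was measured where at least 50% of its spots were well above background on both arrays. The deposited value table holds a ratio per probe; set against the authors' intensities it is the signal divided by 849 and 964, with column medians of 0.06 and a lowest value of 0.01, so each column is relative to its own array and holds no contrast; the series text names GeneSpring, and it is not stated whether that made this table.

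Member genes keep the array's names; accessions of 73 of the 99 member probes matched RefSeq (GRCm38.p6), which was used for names, gene order and promoter windows. Other probes took the RefSeq symbol of their accession. Normexp correction (offset 50) used limma 3.58.1, and the rest used Python 3.11.15, pandas 2.3.3 and NumPy 2.4.6. Only the steps from spots to gene ratios under the main scaling were tested on simulated data. Every member above background on at least 1 array is named, with lists of partners and markers; 1 listed partner is not reported here. The members, the lists and the motifs were chosen with earlier results of these data known. Calls are at 2-fold and 1.5-fold, set beside the share of all measured genes. With 1 array per group no test was possible, and the number of arrays limits the precision.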

Additional observations from a re-analysis of the deposited data

How the results depend on the processing

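The interferon-induced members kept a negative median in every alternative run. Over the alternatives fixed at the start it ran from -0.91 without a filter on dim probes to -0.54 scaled on spike-in probes. It was -0.87 with a narrow list of 5 members and -0.58 with a broad list of 10. The gap to the other members ran from -0.82 to -0.52 over the alternatives fixed at the start. Multiplying a whole array by 1 factor shifts all log2 ratios alike. The gap therefore had to stay at -0.76 when only that factor changed (spike-in probes, measured probes or array median), and those runs do not test it. Without the chromosome 7 cluster, an alternative chosen after seeing the data, the median was -0.35, the gap -0.26 and 0 members were at least 2-fold lower. The median of the other members passed 0 with the 75th percentile of measured probes (0.054) and with spike-in probes (0.22). These scalings moved the median of all genes by 0.14 and 0.31, and dropping the filter moved it by -0.12. At least 2-fold higher were 2 of 40 members under the first scaling, where 833 of 16022 genes were. Under the second scaling 3 members were, where 1190 genes were, so both counts stood near the share of all genes. Without the filter on dim probes 5 of 51 members were at least 2-fold lower, where 6.27% of all genes were. In that run 1 member was higher, where 1607 of 28781 genes were. With the family members under other names 4 of 46 were lower, where 3.76% of all genes were. At 1.5-fold 7 members were lower (17.5%, background 14.8%) and 3 higher (7.5%, background 9.74%), and at 3-fold 1 was lower (background 0.955%). Of 390 values of single members under alternatives, 28 moved by more than their 95% spot error, 17 of them with spike-in probes, and 27 changed sign, over 16 members and 11 times with spike-in probes. Trim30 and Trim34 kept their sign. Dim members such as Trim2, Trim7, Trim9, Trim12 and Trim62 are limited by signal over background. Leaving out a replicate was not possible, and no paired analysis was possible because each group has 1 array.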
